A study of Homo sapiens with 10 samples.

Results

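The MYC network is a family of 10 transcription factor genes, MYC, MYCN, MAX, MXD1, MXD3, MXD4, MXI1, MNT, MGA and MLX, whose RNA levels were compared here between VEN-sensitive and VEN-insensitive leukemia lines. The genes were chosen by family membership, and their symbols were matched through GENCODE 29 to the Ensembl identifiers of the count files. All 10 were found among 63677 identifiers, and 9 of them were among the 16756 genes with enough counts to be tested. RS4;11 is an established line of BCP-ALL, an acute leukemia of B-cell precursors, and venetoclax (VEN) is an inhibitor of the anti-apoptotic protein BCL-2. The 5 VENins lines were cultured in parallel under stepwise increasing VEN until they were insensitive to it, and the 5 VENsens lines were carried along with the solvent DMSO. A single poly(A) RNA library was sequenced from each line. All lines descend from the same RS4;11 culture, so the spread between replicates is that between separately grown lines of one leukemia. VEN exposure and acquired insensitivity go together in the VENins lines and cannot be told apart.

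Proteins of this network share a basic helix-loop-helix leucine zipper and bind DNA as dimers at the E-box CACGTG. MYC and MYCN pair with MAX and activate genes of ribosome assembly, metabolism and cell division, while MXD1, MXD3, MXD4, MXI1 and MNT compete for MAX and recruit SIN3 corepressors to the same sites. MGA joins MAX in a variant Polycomb complex, PRC1.6, and MLX connects the network to the glucose-responsive factors MLXIP and MLXIPL. In BCP-ALL, as in other lymphoid malignancies, MYC is known as a driver of growth.

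Between 20631907 and 28323643 reads per library were counted on genes, and the medians were 24010870 for VENsens and 24611645 for VENins lines. Levels are given as CPM, the count of a gene scaled to a common library total, after TMM scaling for library composition. Differences are log2 fold changes of VENins over VENsens lines, fitted and tested with edgeR. VENins line 5 stood apart from the other VENins lines. The chi-square of its counts against each of them, divided by the degrees of freedom, was between 13.3 and 14.3, compared with 4.29 to 9.63 for the other pairs of VENins lines and 1.93 to 9.81 for the pairs of VENsens lines. Values without the lines numbered 5 are therefore given for several genes.

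The lines carried the RNA of B-cell precursors. All 10 markers of this cell type were measured, their summed level was between 3558 and 4016 CPM per library, and IGLL1, a component of the surrogate light chain, was the most abundant with a mean of 723 CPM. The B-cell identity factor PAX5 was the 1 marker gene called as changed. It was at 782, 827, 713, 804 and 790 CPM in VENsens lines 1 to 5 and at 632, 584, 615, 676 and 647 CPM in VENins lines 1 to 5, so that every VENins line was below every VENsens line. PAX5 fell by 0.31 on the log2 scale (SE 0.053, adjusted p = 0.0272, edgeR). Without the lines numbered 2, 3 or 5, the adjusted p was 0.242, 0.0597 and 0.0647. Of 5 T cell markers, 4 stayed under 1 CPM in all libraries and CD3E, the most abundant, had a mean of 0.859 CPM. The 7 monocyte and neutrophil markers summed to between 7.41 and 12.6 CPM, nearly all of it from CSF1R with a mean of 9.51 CPM, and S100A8 and S100A9 were at 0. The 4 erythroid markers summed to at most 0.0485 CPM, with HBB the most abundant, and the 4 fibroblast markers to between 1.93 and 3.34 CPM, with COL1A1 at a mean of 2.72 CPM.

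None of the 9 tested network genes was called as changed between VENins and VENsens lines. With edgeR, 0 of 9 had an adjusted p under 0.05, against 33 of all 16756 genes (0.197%), and 0 of 9 had an unadjusted p under 0.05, against 2710 genes (16.2%). MXD3 missed this narrowly, with an unadjusted p of 0.0504 in edgeR, and was under 0.05 in several of the alternatives given at the end. DESeq2 also called 0 of 9 network genes, with or without a term for the line number. Since 7.79% of all genes were higher and 8.38% lower at an unadjusted p under 0.05, a list of 9 genes without such a call is close to the background. The CPM of VENins and VENsens lines overlapped for each of the 9 genes, while the groups did not overlap for 781 of all genes (4.66%). The log2 fold change was above 0 for 3 and below 0 for 6 of the 9, with a median of -0.058 compared with 0.0035 over all tested genes. In bulk RNA, fewer cells that express a gene and less RNA of it per cell cannot be told apart.

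**Figure D1:**
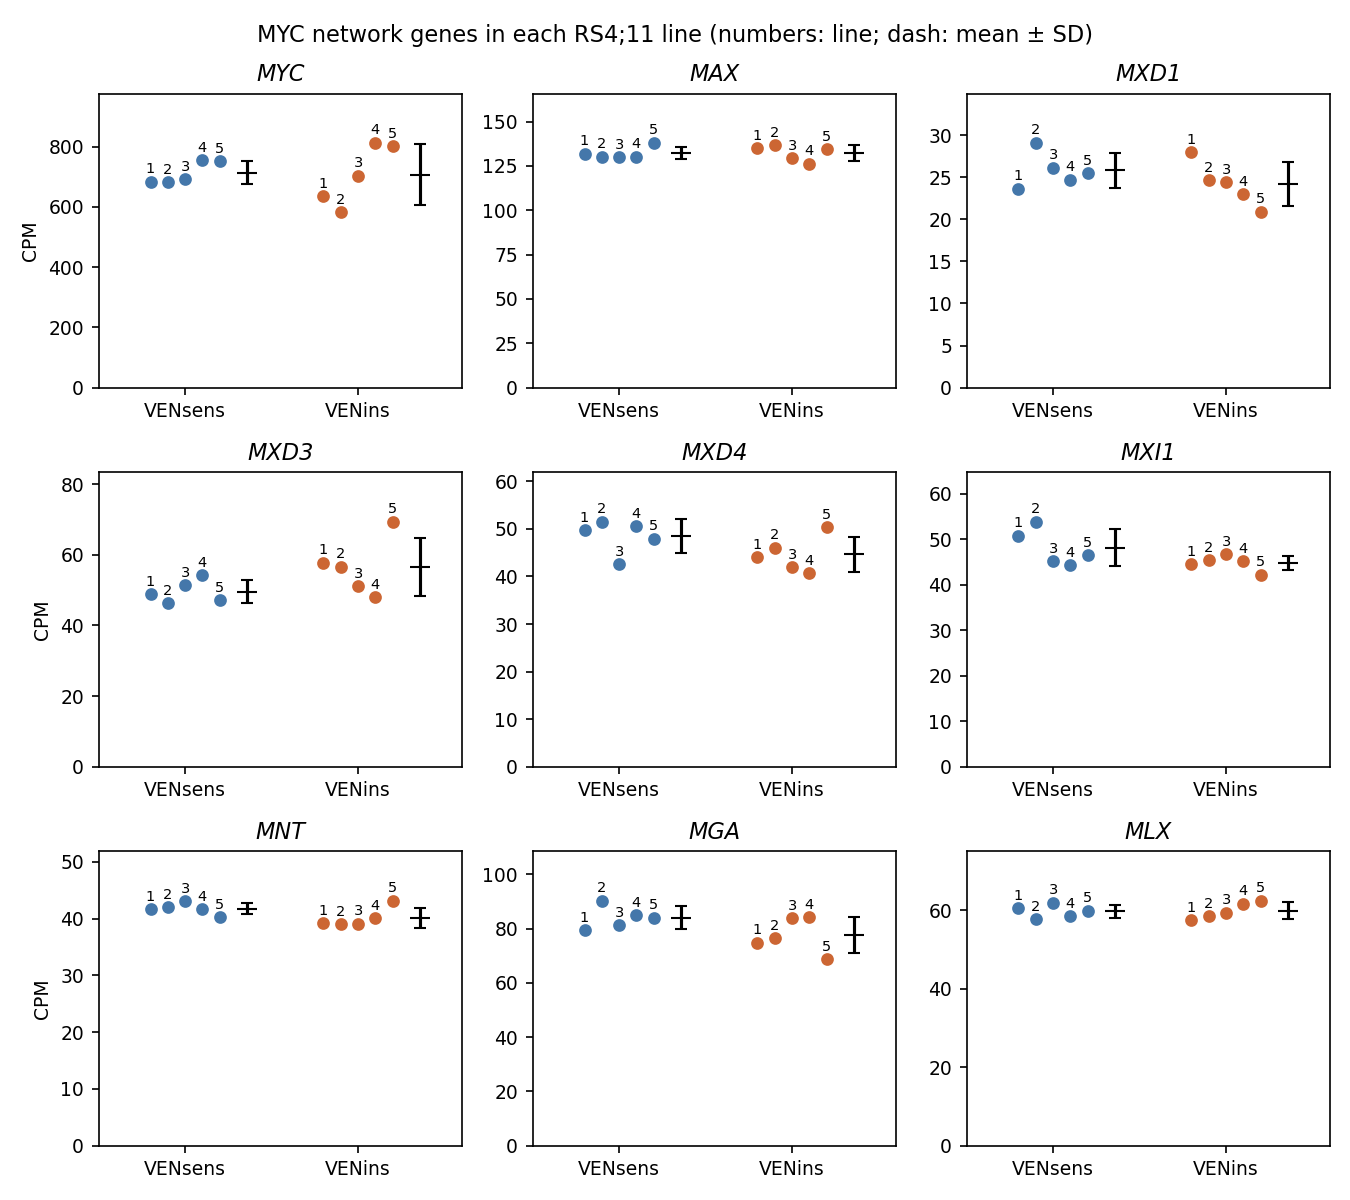
CPM of the 9 detected MYC network genes in each RS4;11 line (numbers give the line, the dash and bar the mean and SD of 5 lines), with axes starting at 0. VENsens and VENins values overlap for every gene, and MYC and MXD3 spread more widely among the VENins lines.

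MYC (ENSG00000136997; chr8:127735434-127741434, plus strand, GRCh38) was the most abundant network gene and ranked 151 of 16756 tested genes by mean CPM, with 13533 to 20715 counts per library. It was at 684, 681, 692, 756 and 753 CPM in VENsens lines 1 to 5 and at 636, 583, 704, 814 and 802 CPM in VENins lines 1 to 5. VENins lines 1 and 2 lay below all VENsens lines, VENins lines 4 and 5 lay above all of them, and VENins line 3 lay within their range. Mean levels were 713 ± 37.9 CPM for VENsens and 708 ± 101 CPM for VENins (SD, n = 5 each). Between the groups the log2 fold change was -0.021 with a 95% interval of -0.14 to 0.10 (adjusted p = 0.896, edgeR), which covers folds between 0.906 and 1.07. When the lines of any 1 number were left out it was between -0.054 and 0.030, and -0.049 without those numbered 5. A p-value that misses the threshold does not show equal levels, and differences within this interval remain compatible with the values of these 5 lines per group.

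MYC differed more in its spread between lines than in its mean, which is given as a description without a test. The coefficient of variation between lines was 5.31% in VENsens, close to the median of 5.32% over the 8176 genes with a mean of at least 20 CPM, and 14.3% in VENins lines, compared with a median of 6.68%. In VENsens lines 49.7% and in VENins lines 93.8% of these genes varied less than MYC. The other network gene with such a spread in VENins lines was MXD3, at 14.5%, followed by MXD1 at 10.8%, MXD4 at 8.44% and MGA at 8.34%, compared with 8.03%, 7.29% and 4.98% in VENsens lines. MXD3 was at 6.61% in VENsens lines. MAX, MLX, MXI1 and MNT were between 3.37% and 4.40% in VENins lines. MXI1 went the other way, with 8.44% in VENsens and 3.67% in VENins lines. In VENsens lines MAX was at 2.62%, MLX at 2.78% and MNT at 2.42%. Over VENins lines 1 to 4 alone, the value was 14.6% for MYC and 8.70% for MXD3, compared with a median of 4.98%.

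MYCN (ENSG00000134323; chr2:15940564-15947007, plus strand), the MYC paralog of neural and early progenitor cells, had 0 counts in all 10 libraries. A count of 0 allows up to 3 counts, which is a level between 0.106 and 0.145 CPM depending on the library. This floor covers counting error only, since reads without molecular identifiers are not independent molecules. The counts were made on an earlier genome build, whose identifiers can differ from those of GENCODE 29, so the 0 holds for this identifier only. MYCL, a further paralog outside the 10 genes, was low, at 1.23 to 2.08 CPM in VENsens and 0.777 to 1.65 CPM in VENins lines.

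MAX (ENSG00000125952; chr14:65006174-65102695, minus strand), the common dimer partner, differed little between lines. Its levels were 132, 130.2, 130.0, 130.3 and 138 CPM in VENsens lines 1 to 5 and 135, 137, 129, 126 and 134 CPM in VENins lines 1 to 5. The ranges overlapped, with VENins lines 3 and 4 below all VENsens lines and VENsens line 5 the highest of all 10. Its log2 fold change was 0.0019 with a 95% interval of -0.11 to 0.11 (adjusted p = 0.991, edgeR).

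Among the MAX partners that oppose MYC, MXD3 (ENSG00000213347; chr5:177301461-177312757, minus strand), an MXD member of cycling cells, had the smallest p-value of the network. It was at 48.9, 46.2, 51.4, 54.3 and 47.2 CPM in VENsens lines 1 to 5 and at 57.8, 56.7, 51.2, 47.9 and 69.4 CPM in VENins lines 1 to 5. VENins lines 1, 2 and 5 were above all VENsens lines, VENins lines 3 and 4 were within their range, and line 5 was the highest of all 10. The difference was 0.18 on the log2 scale (SE 0.085, 95% interval -0.00032 to 0.36; adjusted p = 0.310, edgeR). Without the lines numbered 5 it was 0.087 (adjusted p = 0.614). Over the 13 alternatives the adjusted p was between 0.123 and 0.719. The exons of MXD3 share 40.4% of their bases with RAB24 on the same and PRELID1 on the opposite strand, and reads on several genes were left out of the counts, so its level is less certain than that of the other members.

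MXD1 (ENSG00000059728; chr2:69897688-69942945, plus strand), first described in differentiating cells, was the least abundant of the 9 tested network genes, with 480 to 742 counts per library. Its levels were 23.6, 29.1, 26.1, 24.7 and 25.5 CPM in VENsens lines 1 to 5 and 28.0, 24.6, 24.4, 23.0 and 20.9 CPM in VENins lines 1 to 5. The groups overlapped, and VENins line 5 was the lowest line. A log2 fold change of -0.097 was fitted (95% interval -0.27 to 0.073, adjusted p = 0.584, edgeR), which was -0.18 (adjusted p = 0.247) without the lines numbered 1, -0.061 without those numbered 2 and -0.051 without those numbered 5.

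MXD4 (ENSG00000123933; chr4:2247432-2262294, minus strand) was at 49.7, 51.5, 42.6, 50.6 and 48.0 CPM in VENsens lines 1 to 5 and at 44.1, 46.0, 42.0, 40.7 and 50.3 CPM in VENins lines 1 to 5. VENins line 5 was the highest VENins line and lay above VENsens lines 1, 3 and 5. VENsens line 3 also lay below VENins lines 1 and 2. For MXD4 the log2 fold change was -0.12 (95% interval -0.26 to 0.018, adjusted p = 0.381, edgeR). It was -0.072 (adjusted p = 0.714) without the lines numbered 4 and -0.17 (adjusted p = 0.216) without those numbered 5. MXI1 (ENSG00000119950; chr10:110207605-110287365, plus strand), also an MXD-type repressor, ranged from 44.3 to 53.9 CPM in VENsens and from 42.2 to 46.7 CPM in VENins lines. VENsens lines 1 and 2 were above all VENins lines and the remaining VENsens lines were among them. For MXI1 it was -0.10 (95% interval -0.24 to 0.033, adjusted p = 0.449, edgeR) and -0.064 (adjusted p = 0.844) without the lines numbered 2.

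MNT (ENSG00000070444; chr17:2384060-2401118, minus strand), the broadly expressed antagonist, varied little. It was at 41.7, 42.0, 43.1, 41.6 and 40.3 CPM in VENsens lines 1 to 5 and at 39.2, 39.0, 39.1, 40.04 and 43.2 CPM in VENins lines 1 to 5. VENins lines 1 to 4 lay just below the VENsens lines, and VENins line 5 was level with the highest of them. Its log2 fold change was -0.058 (95% interval -0.19 to 0.071, adjusted p = 0.684, edgeR) and was -0.038 without the lines numbered 3 (adjusted p = 0.865) and -0.098 without those numbered 5 (adjusted p = 0.440). An antisense gene covers 12.2% of the exonic bases of MNT, and whether the counting used strand is not given in the sources used here.

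MGA (ENSG00000174197; chr15:41621224-41773081, plus strand), the scaffold of PRC1.6, was at 79.4, 90.4, 81.2, 85.0 and 84.1 CPM in VENsens lines 1 to 5. In VENins lines 1 to 5 it was at 74.9, 76.5, 83.8, 84.2 and 68.8 CPM. VENins lines 1, 2 and 5 were below all VENsens lines and VENins lines 3 and 4 among them. MGA had a log2 fold change of -0.12 (SE 0.061, 95% interval -0.25 to 0.015; adjusted p = 0.371, edgeR) and -0.073 without the lines numbered 5.

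MLX (ENSG00000108788; chr17:42567068-42573239, plus strand) ranged from 57.7 to 61.9 CPM in VENsens and from 57.4 to 62.5 CPM in VENins lines, so that the groups covered the same narrow range. Its log2 fold change was 0.0033 (95% interval -0.11 to 0.12, adjusted p = 0.988, edgeR). A share of 18.1% of its exonic bases overlaps PSMC3IP on the opposite strand.

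Long genes tended to be lower against short genes in VENins lines, which touches MGA in particular, whose 17651 exonic bases make it the longest member. Each gene was centred on its mean log2 CPM over all libraries. The median of genes in the upper quartile of exonic length (above 6640 bases) was compared with that in the lower quartile (under 1937). The upper minus the lower median was between -0.0046 and 0.15 in VENsens and between -0.091 and -0.0014 in VENins lines, over 16312 genes. The groups overlapped, since VENins line 1 (-0.0014) lay above VENsens line 3 (-0.0046). The value of 0.15 was that of VENsens line 2, and the other VENsens lines reached at most 0.057. When a trend on exonic length was removed from each library, the log2 fold change of MGA was -0.036 (95% interval -0.16 to 0.085), that of MNT was -0.0029, that of MXD4 was -0.077 and that of MXD1 was -0.061. MXD3 was at 0.20 (95% interval 0.026 to 0.38) with an adjusted p of 0.276. MYC was at -0.035 and MXI1 at -0.091 in that fit.

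**Figure D2:**
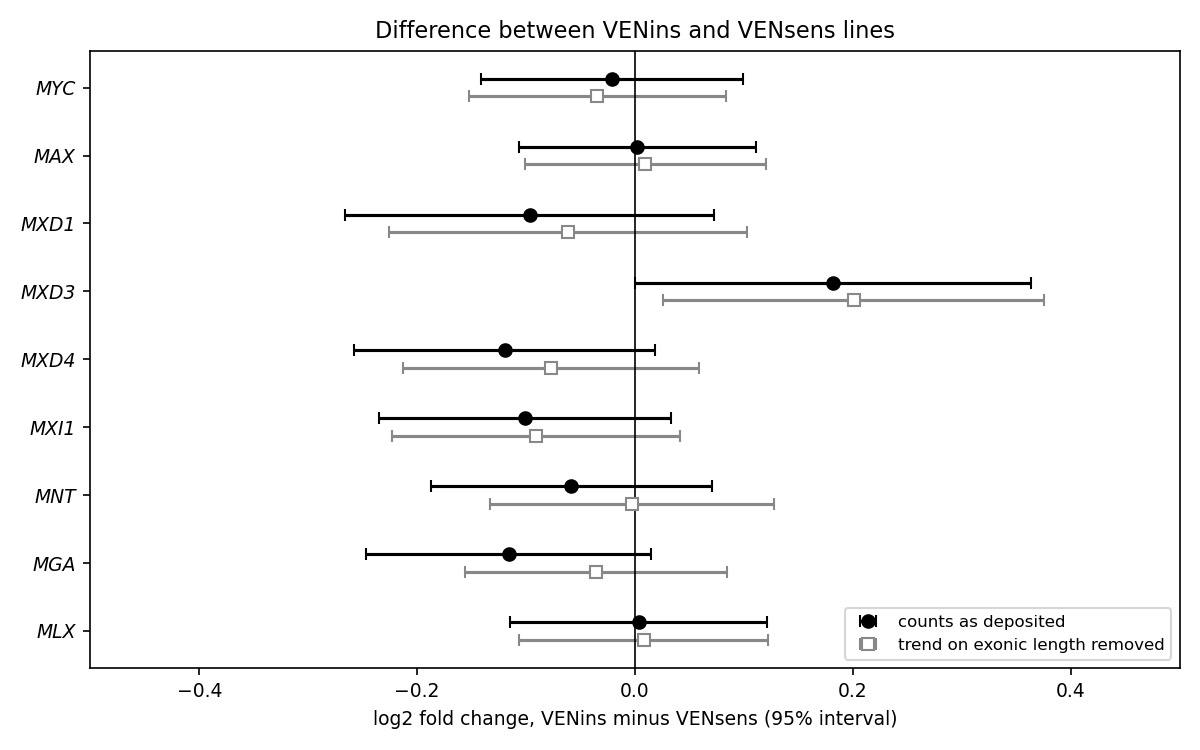
Log2 fold change of VENins over VENsens lines with its 95% interval for each MYC network gene (n = 5 lines per group), from the counts as deposited (filled circles) and after a trend on exonic length was removed (open squares). Intervals from the counts as deposited include 0 for all 9 genes, while the interval of MXD3 after removal of the trend runs from 0.026 to 0.38.

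Levels were compared between genes per kilobase of exon, with the length of all exons in GENCODE 29. On this scale MYC was at 238 ± 12.6 in VENsens and 236 ± 33.7 in VENins lines (CPM per kilobase, SD, n = 5 each). MAX followed at 29.8 ± 0.782 and 29.9 ± 1.01, and MLX at 14.0 and 14.1. MYC thus made up 73.8% of the summed level of the network in both groups, and MAX 9.26% in VENsens and 9.35% in VENins lines. With the longest transcript as the length, the share of MYC was 69.7% in VENsens and 69.5% in VENins lines. The alignment did not split reads over introns, and reads on several genes were left out of the counts. How far this shifts the shares between genes was not tested. The order then ran from MXI1 (10.5 in VENsens and 9.72 in VENins lines) and MXD3 (9.62 and 11.0) over MXD4 (6.87 and 6.32) to MNT (4.78 and 4.60), MGA (4.76 and 4.40) and MXD1 (4.06 and 3.81). MXI1 and MXD3 did not differ beyond their spread between lines and changed places between the groups, and the ranges of MNT and MGA likewise overlapped. With the longest transcript as the length, MXD3 was instead at 21.8 and 24.8, level with MLX at 23.1 and 23.2, so the place of MXD3 depends on the length used.

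**Figure D3:**
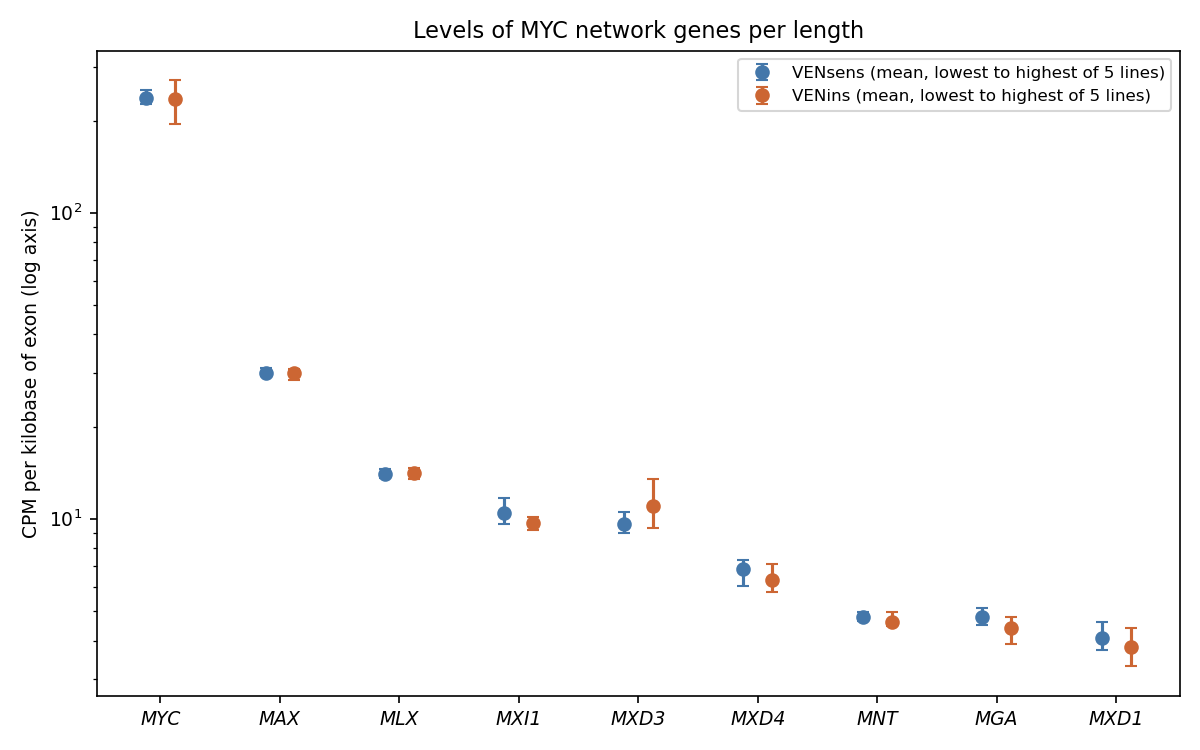
CPM per kilobase of exon of the 9 detected network genes on a log axis, as the mean of 5 VENsens and 5 VENins lines with bars from the lowest to the highest line. MYC lies between 194 and 271 in all lines, far above MAX at 28.5 to 31.2.

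The ratio of MYC to its antagonists and to MAX largely followed MYC itself, but not in every line. Per kilobase, MYC over the summed MXD1, MXD3, MXD4, MXI1 and MNT was 6.32, 6.08, 6.61, 6.999 and 7.24 in VENsens lines 1 to 5 and 5.88, 5.44, 6.83, 8.20 and 7.03 in VENins lines 1 to 5. VENins lines 1 and 2 had the lowest ratios and VENins line 4 the highest, while VENins line 5, with its high MXD3, lay among the VENsens lines. Among VENsens lines the ratio was highest in line 5, whereas MYC itself was highest in line 4. MYC over MAX was between 7.65 and 8.56 in VENsens and between 6.28 and 9.52 in VENins lines, again with VENsens lines inside the VENins range. The summed antagonists were between 34.7 and 37.4 in VENsens and between 33.1 and 38.0 in VENins lines, and the groups overlapped. These values are RNA ratios and say nothing of the amounts of protein.

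Genes with the most similar profiles were searched among 11137 protein-coding genes with a mean of at least 1 CPM, by the root mean square difference of log2 CPM, centred on each gene's mean, over 10 libraries. For MYC, whose own deviation from its mean was 0.14, the nearest were HSPA8 at 0.051, a constitutive chaperone, DNAJC17 at 0.062, ADCY3 at 0.064, SLC29A1 at 0.066 and ZFP64 at 0.067. For MXD3, with its own deviation of 0.17, they were TROAP at 0.053, PRRT2 at 0.060, KIF18B at 0.061, IFFO1 at 0.063 and TACC3 at 0.067. The adjusted p of these 10 genes in edgeR was between 0.166 and 0.832, so none was called as changed. They were chosen for profiles close to those of MYC and MXD3, which were not called either, so this is not a separate result.

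Members of the network can themselves carry the E-box in their promoters, and the windows of those that do are printed here. The palindrome CACGTG, which reads the same on both strands, was searched from 250 bases before to 50 bases after the start of each gene in RefSeq (GRCh38.p14). It was present in 2030 of 27305 promoters (7.44%) and in 3 of the 9 network genes with a promoter in the table, which matched 9 of 10 members and not MYC. The motif begins at -238 from the start of MXD4 (chr4:2262302-2262359, minus strand), at -193 in MNT (chr17:2401208-2401293, minus strand) and at -50 in MLX (chr17:42567010-42567095, plus strand). The motif is in capitals with up to 40 bases of promoter on each side, and a match of letters is a description and not a binding site.
MXD4: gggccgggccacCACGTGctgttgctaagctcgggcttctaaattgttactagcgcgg
MNT: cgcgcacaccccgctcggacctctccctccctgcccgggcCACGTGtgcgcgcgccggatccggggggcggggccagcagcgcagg
MLX: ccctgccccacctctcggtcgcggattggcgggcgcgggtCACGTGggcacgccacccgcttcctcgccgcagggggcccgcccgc

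Genes that act with or under the network were examined in 10 lists of 193 genes, of which 182 were tested. With edgeR, 0 of 182 had an adjusted p under 0.05 and 40 (22.0%) had an unadjusted p under 0.05, of which 24 were higher and 16 lower in VENins lines, beside 16.2% of all genes, 7.79% higher and 8.38% lower. DESeq2 with a term for the line number called 5 of the 182, CREBBP, ID2, CKS2, NDRG1 and FASN, beside 217 of all 16756 genes (1.3%). DESeq2 without this term called 15 of the 182, beside 739 of all genes (4.41%). Besides the 5, these were SAP18 (adjusted p = 0.00585), HUWE1 (0.0255), SAP30 (0.0388), RRS1 (0.0388), SIN3A (0.0421), TFDP2 (0.0421), MYCBP2 (0.0456), POLR1A (0.0473), ODC1 (0.0481) and PIM3 (0.0497). DESeq2 gave no adjusted p for 3899 of the 16756 genes with the term for the line number and for 4550 without it. The shares of 1.3% and 4.41% include these genes, which could not be called, and are therefore low as a background. The median log2 fold change over the lists was 0.017, near the 0.0035 of all genes. Of all tested genes 51.1% were higher in VENins lines and 16.2% had an unadjusted p under 0.05, which is the background for the counts of each list below. TXNIP, BOP1 and RING1 had 0 counts in every library and ACACA was not matched to an identifier. Because identifiers can differ between builds, as noted for MYCN, these 4 genes count as not measured.

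**Figure D4:**
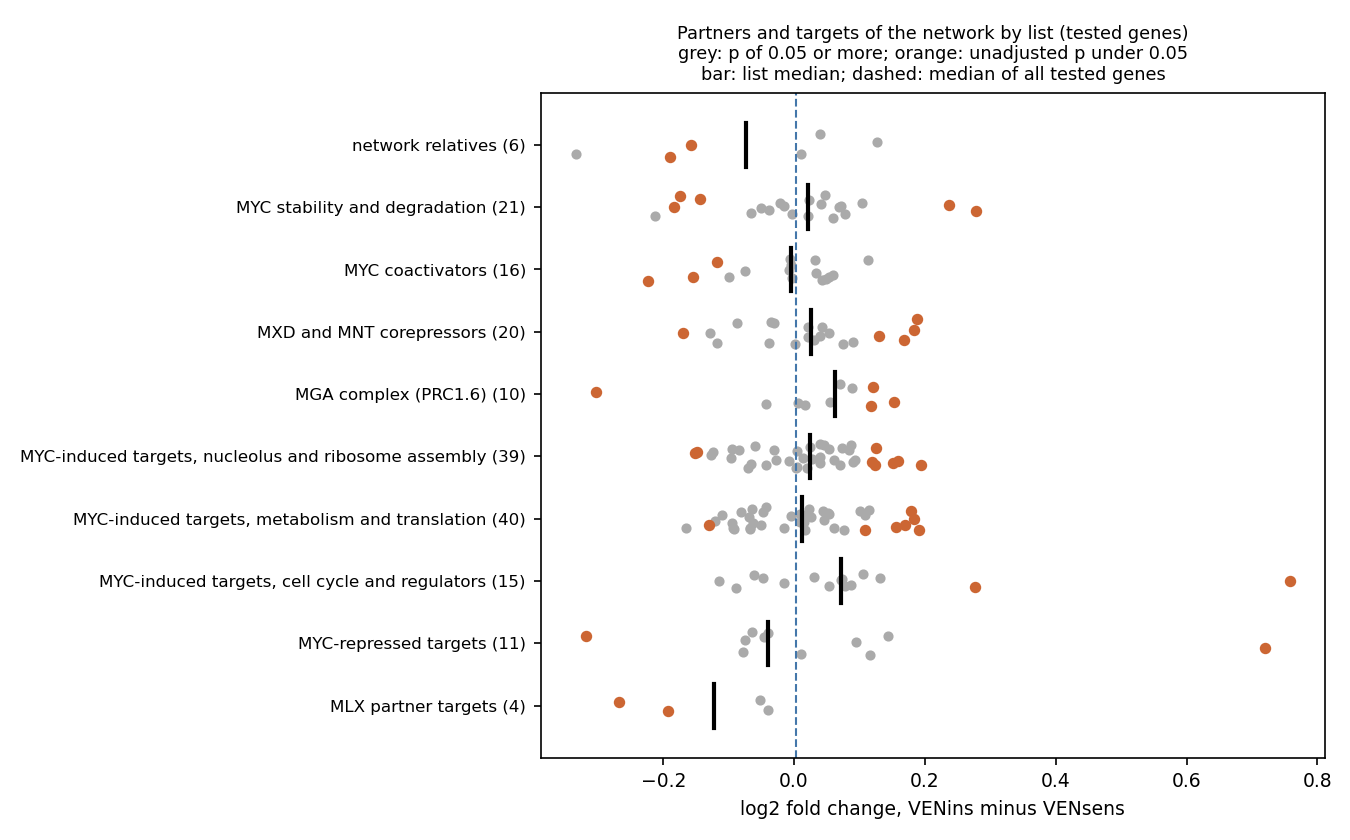
Log2 fold change of VENins over VENsens lines for each tested gene of 10 lists of partners and targets of the MYC network (number of tested genes in brackets), with list medians as bars. Orange points have an unadjusted p under 0.05 in edgeR and the dashed line is the median of all tested genes, 0.0035.

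The relatives of the network hold MLXIP, the MLX partner also called MondoA, and proteins that bind MYC. Of 6 tested relatives, 3 were higher and 3 lower, with a median log2 fold change of -0.073, and 2 had an unadjusted p under 0.05, both lower. MLXIP was at 103, 116, 106, 101 and 95.7 CPM in VENsens lines 1 to 5 and at 92.2, 92.0, 94.3, 93.8 and 94.9 CPM in VENins lines 1 to 5. All VENins lines lay below all VENsens lines within a narrow band, and the log2 fold change was -0.16 (adjusted p = 0.200, edgeR), or -0.082 (adjusted p = 0.522) after removal of the length trend. MYCBP2, a large ubiquitin ligase, had means of 128 and 112 CPM in VENsens and VENins lines (log2 fold change -0.19, adjusted p = 0.182; -0.11 after removal of the length trend), and MYCBP of 31.2 and 34.1 CPM (0.13, adjusted p = 0.414; 0.075 without the lines numbered 2 and 0.19 without those numbered 5). MLXIPL was not tested, with at most 4 counts in a library.

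MYC protein is short-lived, and 21 genes that set its stability were tested. Of these 11 were higher and 10 lower, with a median log2 fold change of 0.021, and 2 higher and 3 lower genes had an unadjusted p under 0.05. The ubiquitin ligase HUWE1 was at 216, 205.3, 203, 209 and 204.5 CPM in VENsens lines 1 to 5 and at 182, 165, 185, 197 and 192 CPM in VENins lines 1 to 5. No VENins line reached the VENsens lines, with a log2 fold change of -0.17 (adjusted p = 0.146, edgeR), and of -0.094 (adjusted p = 0.419) after removal of the length trend. The mitotic kinase AURKA, which protects MYC proteins from degradation, had means of 65.5 and 77.1 CPM (0.24, adjusted p = 0.139). The kinase PIM3 had means of 32.7 and 39.9 CPM (0.28, adjusted p = 0.150; 0.0138 with no filter on low counts), with VENins line 5 the highest at 50.7 CPM. When the lines numbered 5 were left out, PIM3 was at 0.20 and AURKA at 0.26. AURKA passed the threshold at 0.31 without the lines numbered 4 (adjusted p = 0.0330), and over the 13 alternatives its adjusted p was between 0.0225 and 0.561.

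Of 16 coactivators of MYC, 7 were higher and 9 lower, with a median log2 fold change of -0.0039, and 3 lower genes had an unadjusted p under 0.05. The acetyltransferase CREBBP was at 143, 154, 132, 147 and 143 CPM in VENsens lines 1 to 5 and at 122, 121, 117, 126 and 129 CPM in VENins lines 1 to 5. Every VENins line was below every VENsens line. Its log2 fold change was -0.22 (SE 0.053, adjusted p = 0.0843, edgeR), which misses the threshold, and -0.15 (adjusted p = 0.205) after removal of the length trend, and the adjusted p was between 0.00206 and 0.484 over the 13 alternatives. TRRAP, the scaffold of histone acetyltransferase complexes, was at 182 to 192 CPM in VENsens and at 165 to 180 CPM in VENins lines (-0.12, adjusted p = 0.273; -0.035 after removal of the length trend), and CCNT1, a subunit of the elongation factor P-TEFb, had means of 90.5 and 81.3 CPM (-0.15, adjusted p = 0.247). CCNT1 was lowest in VENins line 5, at 71.8 CPM, and its difference was -0.099 without the lines numbered 5.

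On the repressor side, 20 corepressors of MXD and MNT were tested. Of these 13 were higher and 7 lower, with a median log2 fold change of 0.026, and 4 higher genes and 1 lower gene had an unadjusted p under 0.05. SIN3A, the scaffold that MXD proteins and MNT bind, was at 223 to 246 CPM in VENsens and at 192 to 227 CPM in VENins lines (-0.17, adjusted p = 0.180, edgeR), and its difference was -0.099 (adjusted p = 0.420) after removal of the length trend. The SIN3-associated SAP18 was at 135 to 149 CPM in VENsens and at 153 to 165 CPM in VENins lines, without overlap (0.17, adjusted p = 0.147), and SAP30 had means of 65.1 and 74.1 CPM (0.19, adjusted p = 0.139). After removal of the length trend SAP18 was at 0.16 and SAP30 at 0.15.

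Besides MGA, PRC1.6 is represented by 11 genes, of which 10 were tested. Of these 8 were higher and 2 lower, with a median log2 fold change of 0.062, and 3 higher genes and 1 lower gene had an unadjusted p under 0.05, beside 51.1% higher and 16.2% with such a p among all genes. TFDP2, the dimer partner of E2F6, had means of 53.1 and 42.9 CPM in VENsens and VENins lines (-0.30, adjusted p = 0.126, edgeR; 0.00295 with no filter on low counts). The heterochromatin proteins CBX1 (means of 166 and 180 CPM) and CBX3 (334 and 364 CPM) were each higher by 0.12 on the log2 scale in VENins lines (adjusted p = 0.304 and 0.306). For all of them the CPM of the groups overlapped.

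MYC-induced targets were taken as 3 lists of 96 genes, and of these 94 were tested. In all, 57 were higher and 37 lower in VENins lines, with a median log2 fold change of 0.022, and 17 (18.1%) had an unadjusted p under 0.05, of which 14 were higher and 3 lower, beside 16.2% of all genes (7.79% higher and 8.38% lower). For nucleolar and ribosome assembly genes, 25 of 39 were higher (median 0.024), with RRS1 at 84.2 and 96.2 CPM (0.19, adjusted p = 0.155), GAR1 at 50.9 and 56.6 CPM (0.15, adjusted p = 0.234) and the RNA polymerase I subunit POLR1A at 98.6 and 89.0 CPM (-0.15, adjusted p = 0.192; -0.075 after removal of the length trend) as means of VENsens and VENins lines. For metabolism and translation, 22 of 40 were higher (median 0.012). The polyamine enzyme ODC1, a textbook MYC target, was at 188, 161, 196, 187 and 185 CPM in VENsens lines 1 to 5 and at 210, 203, 220, 226 and 187 CPM in VENins lines 1 to 5. The groups overlapped through VENins line 5, and the log2 fold change was 0.19 (adjusted p = 0.130, edgeR). In the same list NDUFAF4, an assembly factor of respiratory complex I, was at 0.17 (adjusted p = 0.239) and hexokinase HK2 at -0.13 (adjusted p = 0.244).

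Of the 15 tested cell cycle targets and regulators, 10 were higher and 5 lower, with a median log2 fold change of 0.072. ID2, an inhibitor of basic helix-loop-helix factors, was at 5.24, 6.10, 4.75, 5.63 and 4.55 CPM in VENsens lines 1 to 5 and at 10.8, 10.8, 7.57, 4.87 and 11.7 CPM in VENins lines 1 to 5. All VENins lines except line 4 were above the VENsens lines, and the log2 fold change was 0.76 (SE 0.16, adjusted p = 0.0666, edgeR). CKS2, a subunit of cyclin-dependent kinases, was at 98.9, 112, 114, 113 and 111 CPM in VENsens and at 132, 142, 139, 116 and 136 CPM in VENins lines 1 to 5. Every VENins line exceeded every VENsens line, with line 4 the nearest, and the log2 fold change was 0.28 (SE 0.060, adjusted p = 0.0666). The result depended on the settings. With no filter on low counts, where 664 of 32884 genes (2.02%) were called, the adjusted p was 5.67e-09 for ID2 and 0.00135 for CKS2, and DESeq2 gave 0.00988 and 0.00684. With the lines numbered 4 left out, where 331 of 16768 genes (1.97%) were called, ID2 was at 0.98 (adjusted p = 0.000193) and CKS2 at 0.33 (adjusted p = 0.0105), whereas leaving out the lines numbered 1, 2, 3 or 5 gave an adjusted p of 0.102 to 0.484 for ID2 and of 0.0996 to 0.484 for CKS2. PTMA was at 0.11 (adjusted p = 0.341) and at 0.062 without the lines numbered 2.

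Of 11 tested MYC-repressed targets, 5 were higher and 6 lower, with a median log2 fold change of -0.040. NDRG1, a stress-induced gene, was at 26.4, 33.3, 25.1, 28.1 and 26.6 CPM in VENsens lines 1 to 5 and at 22.1, 23.4, 22.4, 21.9 and 21.6 CPM in VENins lines 1 to 5. All VENins lines were below the VENsens lines (log2 fold change -0.32, SE 0.070, adjusted p = 0.0691, edgeR; 0.0300 with DESeq2), and the adjusted p was between 0.00398 and 0.484 over the 13 alternatives. The cyclin-dependent kinase inhibitor CDKN1C was low, at 1.72 to 3.44 CPM in VENsens and 2.36 to 6.96 CPM in VENins lines (0.72, adjusted p = 0.182). CDKN1C was at 0.44 without the lines numbered 3 (adjusted p = 0.454) and at 0.49 without those numbered 5 (adjusted p = 0.356), while with no filter on low counts the adjusted p was 5.21e-05. GADD45A was at 0.094 (adjusted p = 0.472) and at 0.060 without the lines numbered 5.

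For MLX and its partners, 4 of 8 listed targets were tested, and all 4 were lower in VENins lines with a median log2 fold change of -0.12, while 51.1% of all genes were higher. Of the 4, 2 had an unadjusted p under 0.05 and 0 an adjusted p under 0.05. Fatty acid synthase, FASN, was at 331, 325.3, 324.8, 341 and 335 CPM in VENsens lines 1 to 5 and at 279, 258, 236, 293 and 317 CPM in VENins lines 1 to 5. The groups did not overlap, and VENins line 5 came closest to the VENsens lines. The log2 fold change of FASN was -0.27 (SE 0.058, adjusted p = 0.0666, edgeR) and -0.32 without the lines numbered 5 (adjusted p = 0.0583). With the lines numbered 4 left out it passed the threshold at -0.28 (adjusted p = 0.0484), and DESeq2 gave an adjusted p of 0.00545 over all lines. Leaving out the lines numbered 1, 2 or 3 gave 0.0786, 0.484 and 0.183, and FASN was at -0.21 (adjusted p = 0.129) after removal of the length trend. ARRDC4, a relative of the arrestin TXNIP, had means of 16.4 and 14.4 CPM (-0.19, adjusted p = 0.266), and ACLY was at -0.040 (adjusted p = 0.783), between -0.086 and 0.0012 when the lines of any 1 number were left out.

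Because MYC varied among VENins lines, its induced targets were set beside it line by line. Centred on the mean of 10 libraries, log2 CPM of MYC was -0.15, -0.28, -0.0062, 0.20 and 0.18 in VENins lines 1 to 5, and the mean over 94 induced targets was -0.023, -0.023, -0.0044, 0.061 and 0.050. The targets were lowest in VENins lines 1 and 2 and highest in lines 4 and 5, which also holds for MYC. It holds as well for the mean over all 16756 tested genes, at -0.0098, -0.010, -0.0045, 0.0014 and 0.0091 in VENins lines 1 to 5, and for the 6 network relatives, at -0.098, -0.12, -0.070, 0.036 and 0.035, so this order is not particular to the targets. For VENsens lines 1 to 5, MYC was at -0.048, -0.054, -0.032, 0.096 and 0.091 and the mean of the targets at -0.0078, -0.11, 0.030, 0.0023 and 0.020. Here line 2 was the lowest and line 1 the next for both. The target mean was highest in line 3 and MYC in line 4, so the 2 orders differed in the places of lines 3 and 4. The cell cycle list showed another order, with a mean of 0.15 in VENins line 5 and of -0.0097 in VENins line 4. These means are given as a description of 10 libraries without a test.

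**Figure D5:**
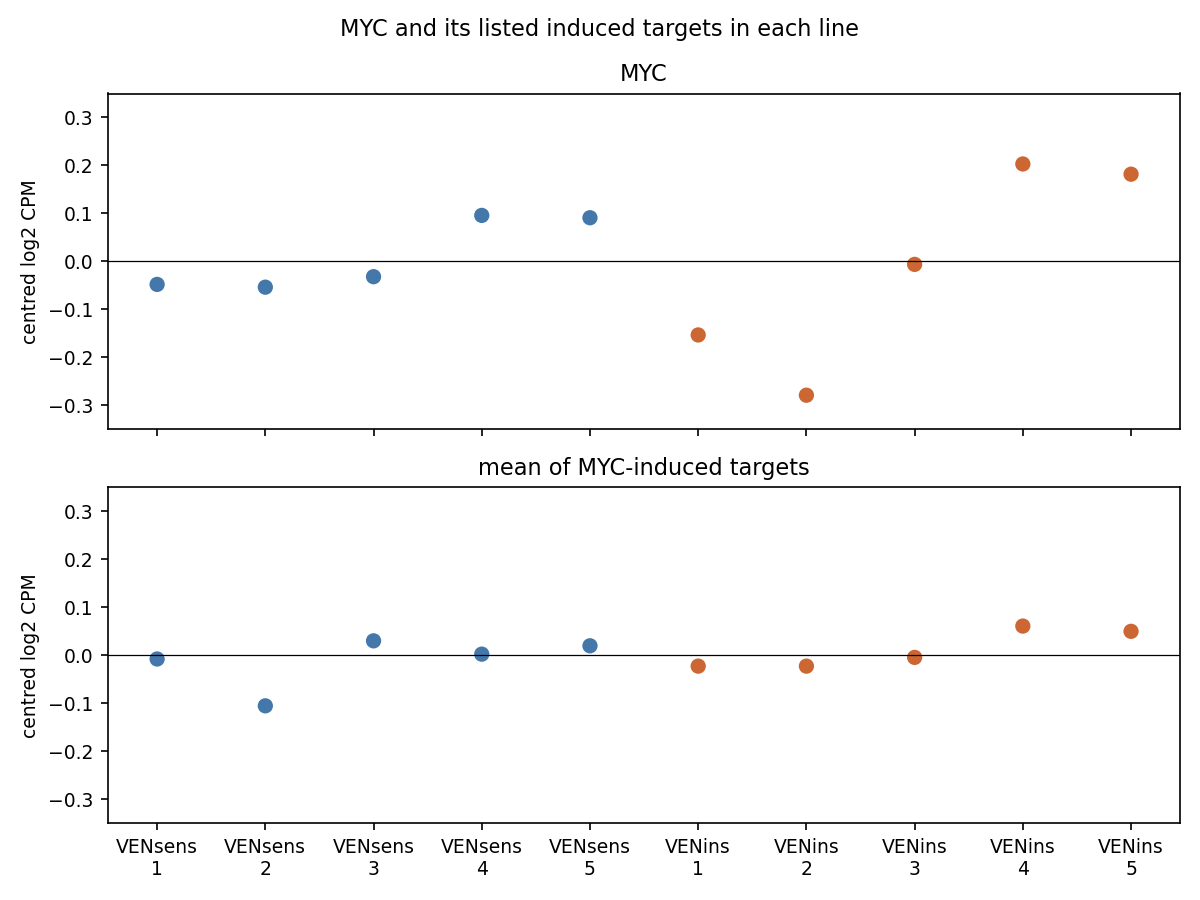
Log2 CPM centred on the mean of 10 libraries for MYC (upper panel) and averaged over 94 MYC-induced targets (lower panel) in each VENsens and VENins line. MYC runs from -0.28 to 0.20 in VENins lines, and the target mean from -0.11 in VENsens line 2 to 0.061 in VENins line 4.

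The E-box was found in 22 of 78 MYC-induced targets with a promoter in RefSeq (28.2%), in 12 of 32 nucleolar genes (37.5%) and in 8 of 34 metabolic genes (23.5%), compared with 7.44% of all promoters. The lists were drawn up from known MYC targets, many of which are known to carry this motif. Targets with the motif had a median log2 fold change of 0.023 (22 genes, 14 of them higher in VENins) and those without it one of 0.024 (56 genes, 36 higher). Over all tested genes with a promoter, the medians were -0.0093 for 1006 genes with and -0.0012 for 8914 genes without the motif. Shown are the windows of CDK4 (chr12:57752366-57752560, minus strand), a MYC-induced kinase with 3 copies, and of CCNT1 (chr12:48716896-48716957, minus strand) and ARRDC4 (chr15:97960453-97960538, plus strand), both named above with lower means in VENins lines, with the motif in capitals.
CDK4: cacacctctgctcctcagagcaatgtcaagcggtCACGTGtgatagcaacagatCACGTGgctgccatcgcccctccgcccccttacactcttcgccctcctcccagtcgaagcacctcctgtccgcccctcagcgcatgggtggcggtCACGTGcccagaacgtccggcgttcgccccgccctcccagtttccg
CCNT1: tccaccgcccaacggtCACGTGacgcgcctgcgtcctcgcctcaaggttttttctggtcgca
ARRDC4: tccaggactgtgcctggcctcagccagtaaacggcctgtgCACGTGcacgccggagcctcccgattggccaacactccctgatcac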

How the data were processed

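The authors deposited raw read counts per Ensembl gene for each of the 10 libraries, without normalization. Libraries were made from poly(A) RNA with a kit that does not mark strand and sequenced as single-end reads. The submitters' processing notes name bcl2fastq 2.20.0.422, Bowtie2 2.3.5.1, SAMtools 1.9, HTSeq 0.9.1 and the human build GRCh37. Positions and lengths given here are from GENCODE 29 on GRCh38, and only names and lengths were joined to the counts. Bowtie2 does not split reads over introns. Files hold 38491516 to 52960365 reads, of which 52.7% to 54.2% were on genes. HTSeq left out 3.69% to 3.98% on several genes, 7.29% to 7.78% outside genes, 24.6% to 26.1% whose alignment quality was low and 9.39% to 10.2% without an alignment. Paralogs and overlapping genes are therefore counted with less certainty.

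Gene counts were filtered and tested by edgeR 4.0.16 in R 4.3.3: filterByExpr (minimum count 10, minimum total 15), TMM factors and the quasi-likelihood F test with terms for line number and group. The term for line number follows the study, which paired the lines but used DESeq2, given here as an alternative. Benjamini-Hochberg adjustment covered 16756 genes, and a gene was called at an adjusted p under 0.05. Log2 CPM used a prior count of 2. Alternatives used DESeq2 1.42.0, other scalings and filters, a spline on exonic length with 4 degrees of freedom and each line number left out. The steps were tested on simulated data. GENCODE named 52526 identifiers, and 232 of 233 list symbols were matched.

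Members and lists were chosen with earlier results of these data known. Lists were written from general knowledge. Named in the text are all 10 members, the 3 genes with the smallest p of each list and, for MYC and MXD3, the 5 genes with the nearest profiles. PAX5, and the promoter windows of CDK4, CCNT1 and ARRDC4, were chosen after their values were seen, as were the spread over VENins lines 1 to 4, the target means by line and the split by E-box.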

Additional observations from a re-analysis of the deposited data

Results flagged for a closer look

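In 80 groups of 5 lines, 1 for each named gene and condition, the gap between the highest or lowest line and its neighbour was compared with the whole range of the group. It exceeded 0.71 of the range, the limit for 5 lines, in 4 groups, and chance gives about 4. MAX was highest in VENsens line 5, at 138 CPM compared with 130.0 to 132 CPM in the other VENsens lines, with a gap of 0.764 of the range. MNT was highest in VENins line 5, at 43.2 CPM compared with 39.0 to 40.04 CPM (0.756 of the range). In VENsens line 1, CBX1 was lowest with 157 CPM against 166 to 170 CPM (0.721 of the range), and so was CKS2 with 98.9 CPM against 111 to 114 CPM (0.791 of the range).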

How the results depend on the processing

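The call of 0 network genes held in all 13 alternatives, with the adjusted p of any member between 0.123 and 0.9995. MXD3 had an unadjusted p under 0.05 without the replicate block, in DESeq2, with RLE factors, with no filter on low counts, after removal of the length trend and without the lines numbered 3 or 4, as had MXD1 without those numbered 1, MGA without those numbered 3 and MXD4 without those numbered 5. The number of genes changed between VENins and VENsens lines moved from 33 to 149 with no replicate block, 217 in DESeq2 with the block, 739 in DESeq2 with no replicate block, 664 with no filter on low counts and 50 after removal of the length trend, and it was between 6 and 331 when a line number was left out. Of the genes in the 10 lists, 4 were called with no replicate block (CREBBP, ID2, CKS2 and NDRG1), 9 with no filter and 4 without the lines numbered 4 (AURKA, ID2, CKS2 and FASN). The cause of these shifts was not tested.

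The line numbers did not pair the libraries. Deviations of same-numbered lines from their group means correlated between -0.103 and 0.028 (5 pairs), those of differently numbered lines between -0.16 and 0.22, and 0 of 5 VENsens lines correlated best with its own number.

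Values near 0 changed sign. MYC was at 0.00020 and 0.030 without the lines numbered 1 or 2, in a range from -0.054 over the lines left out. MAX was at -0.0042 with library size alone and at -0.0054 and -0.016 without the lines numbered 1 or 2 (highest 0.014). MLX was at -0.0028 with library size alone and at -0.00037, -0.015 and -0.011 without the lines numbered 2, 4 or 5 (highest 0.023). ACLY was at 0.0012 without the lines numbered 5 (lowest -0.086). With the longest transcript as the length, the shares of the summed level in VENsens lines were 69.7% for MYC, 9.69% for MAX, 1.07% for MXD1, 5.03% for MXD3, 2.65% for MXD4, 1.93% for MNT, 1.35% for MGA and 5.34% for MLX, since the lengths differ.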
